A study of Mus musculus with 12 samples.

Results

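The genes described here are 8 that encode the iron sensors and receptors upstream of hepcidin in liver cells: Tfr2, Hfe, Tmprss6, Neo1, Bmp6, Acvr1, Bmpr1a and Bmpr2. They were picked by symbol from the 16728 genes of the deposited expression table, and all 8 were found there and passed the filter on low counts. RNA was sequenced from mouse primary hepatocytes in 12 libraries, 3 in each of 4 groups. The cells came from wild-type (WT) or Fxr-/- (KO) livers, were labelled with the strain C57BL/6, were cultured in DMEM with serum, and received either FAC or AC, each at 100 µM, over 24 h. Both agents are named by these letters alone, the series title speaks of iron overload, and no label states how the Fxr allele was made, the age of the mice or whether the libraries of a group came from separate animals. In both genotypes the AC libraries carry the numbers 1 to 3 and the FAC libraries 4 to 6. P-values measure only the spread between these samples.

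Hepcidin, encoded by Hamp, is the liver hormone that limits the release of iron into plasma. Hepatocytes set its transcription mainly through BMP signalling: the ligand BMP6, made largely by sinusoidal endothelial cells of the liver, binds type I receptors (ALK2, encoded by Acvr1, and ALK3, encoded by Bmpr1a) and type II receptors such as BMPR2, and these activate SMAD proteins. Hemojuvelin (gene Hjv, listed here under its older symbol Hfe2) is a coreceptor for BMPs, neogenin (Neo1) binds hemojuvelin, and the protease matriptase-2 (Tmprss6) cleaves it and so dampens the signal. HFE and transferrin receptor-2 (Tfr2) sense transferrin carrying iron, and HFE also binds the transferrin receptor encoded by Tfrc.

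The libraries held 16464494 to 18335700 estimated reads each. Nr1h4, the gene of Fxr, lay between 12.98 and 15.63 CPM (a gene's reads relative to the scaled library total) in WT AC, between 6.954 and 7.686 in WT FAC, between 6.974 and 9.35 in KO AC and between 3.537 and 4.89 in KO FAC, so reads of the gene remained in KO cells. Of 10 hepatocyte markers all were read in every library, with a summed level of 13000 to 13270 FPKM (a level per transcript length and library size) in WT AC, 17370 to 18360 in WT FAC, 13150 to 13960 in KO AC and 15940 to 16970 in KO FAC. Alb made up most of this sum (a mean of 11200 FPKM in WT AC and 9384 in KO AC). Cps1, a urea cycle gene of fresh liver, was low in all of them (0.61 to 5.1 FPKM). Of the macrophage markers, Cd68 made up nearly all of the summed level, while Clec4f was at 0 in 10 libraries and no other marker passed 1.37 FPKM. The macrophage sum (8 of 9 genes listed) was 335.6 to 393.7 FPKM in WT AC, 599.6 to 647.4 in WT FAC, 493 to 609.8 in KO AC and 626.3 to 714.2 in KO FAC. The macrophage markers Adgre1 and Marco went the other way from this sum, lower in KO cells (log2 fold change −2.76 and −2.75 under AC) and lower with FAC in WT cells (−1.64 and −1.70). The stellate and fibroblast sum (9 of 10 genes listed) was 3.48 to 4.41 FPKM in WT AC, 2.65 to 3.11 in WT FAC, 0.85 to 1.01 in KO AC and 0.55 to 0.75 in KO FAC. The cholangiocyte sum (6 genes) was 307.7 to 314.2, 258.2 to 296, 53.71 to 63.55 and 83.57 to 101.4 FPKM in the same order of groups, and nearly all of it was Spp1 (means of 296.3, 267.8, 40.27 and 59.83 FPKM).

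RefSeq windows of GRCm38.p6 before a transcription start were found for 7 of the 8 genes (not for Tmprss6), with 3 windows for Tfr2. The 250 bases before the start are printed for the 5 genes that were lower in KO cells under both treatments. For contrast, the first window of Tfr2, a gene that was higher, is printed too. Some windows precede a start inside the gene's span. That of Bmpr1a lies wholly within the span, which ends at 34503336. The windows of Neo1 and Tfr2 overlap their spans, which end at 59036614 and begin at 137569822. Capitals mark matches on either strand to GGCGCC (a SMAD-binding motif of BMP target genes), CACGTG (the E-box) or TGACNNNGC (the core of the antioxidant response element). None of these matches overlapped another.
Hfe at chr13:23710855-23711104 on the minus strand: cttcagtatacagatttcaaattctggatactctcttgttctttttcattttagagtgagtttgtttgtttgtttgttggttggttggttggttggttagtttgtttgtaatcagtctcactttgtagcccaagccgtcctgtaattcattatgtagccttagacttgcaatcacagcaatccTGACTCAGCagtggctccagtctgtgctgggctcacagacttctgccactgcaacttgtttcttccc
Bmp6 at chr13:38345466-38345715 on the plus strand: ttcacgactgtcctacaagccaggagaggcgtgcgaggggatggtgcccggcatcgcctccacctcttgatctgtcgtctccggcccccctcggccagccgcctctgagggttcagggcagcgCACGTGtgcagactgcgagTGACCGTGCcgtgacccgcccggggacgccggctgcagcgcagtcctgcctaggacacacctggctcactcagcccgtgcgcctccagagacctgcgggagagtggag
Neo1 at chr9:59036442-59036691 on the minus strand: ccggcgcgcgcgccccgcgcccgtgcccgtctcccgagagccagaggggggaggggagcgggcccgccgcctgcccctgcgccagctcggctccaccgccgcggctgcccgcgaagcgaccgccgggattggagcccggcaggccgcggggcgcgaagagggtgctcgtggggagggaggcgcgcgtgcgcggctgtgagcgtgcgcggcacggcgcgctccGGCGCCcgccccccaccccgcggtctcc
Bmpr1a at chr14:34502547-34502796 on the minus strand: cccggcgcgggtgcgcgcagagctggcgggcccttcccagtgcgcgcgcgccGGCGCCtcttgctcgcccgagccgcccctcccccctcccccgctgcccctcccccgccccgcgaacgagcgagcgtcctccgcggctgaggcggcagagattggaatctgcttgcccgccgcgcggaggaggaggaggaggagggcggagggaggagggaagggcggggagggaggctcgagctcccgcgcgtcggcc
Bmpr2 at chr1:59764029-59764278 on the plus strand: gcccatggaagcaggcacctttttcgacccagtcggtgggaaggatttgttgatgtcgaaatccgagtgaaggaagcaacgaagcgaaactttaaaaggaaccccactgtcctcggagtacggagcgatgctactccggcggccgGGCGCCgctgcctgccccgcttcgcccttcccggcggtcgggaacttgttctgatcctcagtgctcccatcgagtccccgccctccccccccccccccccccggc
Tfr2 at chr5:137569590-137569839 on the plus strand: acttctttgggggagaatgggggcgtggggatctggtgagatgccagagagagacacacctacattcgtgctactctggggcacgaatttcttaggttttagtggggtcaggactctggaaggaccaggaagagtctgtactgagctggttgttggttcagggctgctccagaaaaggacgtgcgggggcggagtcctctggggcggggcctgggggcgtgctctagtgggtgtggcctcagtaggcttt
GGCGCC stood in the windows of Neo1, Bmpr1a and Bmpr2, CACGTG in that of Bmp6, and TGACNNNGC in those of Bmp6 and Hfe. Among all 32851 RefSeq windows of the same length, 9.59% held GGCGCC, 6.02% CACGTG and 10.2% TGACNNNGC, and among the 9178 windows with at least 60% G and C, 26.1% held GGCGCC. The Neo1, Bmpr1a and Bmpr2 windows were 83.2%, 78.8% and 64% G and C, while that of Hfe was 42%. AGGTCA, the hexamer that many nuclear receptors bind, was found in 14% of all windows, and the inverted repeat of that hexamer with 1 base between, which Fxr binds with its partner, in 0.00609%. Neither was found in any window of the members. These matches describe letters in a short window and were not tested as binding sites.

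Per transcript length, the sensors and the protease were the most abundant of these RNAs and Bmpr2 the least. In WT AC the mean levels were 31.1 ± 0.86 FPKM for Hfe (SD, n = 3 in every group), 30.3 ± 0.83 for Tfr2 and 28.7 ± 1.8 for Tmprss6, and the libraries of neighbours in this order overlapped. The next 3 genes, Bmpr1a (15.6 ± 0.86), Acvr1 (14.7 ± 0.39) and Neo1 (13.8 ± 1.1), also overlapped as neighbours, and lay below the first 3. Bmp6 followed at 10.5 ± 0.29 and Bmpr2 at 6.03 ± 1.5 FPKM, each apart from its neighbour above. Among the 12275 tested genes, the level of Hfe stood above 78.3% and that of Bmpr2 above 41.2%.

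The order was different in KO cells. Tmprss6 (55.0 ± 2.1 FPKM) and Tfr2 (49.8 ± 4.0) led in KO AC, with overlapping libraries, and Hfe (18.4 ± 1.3) came well below them. Acvr1 (16.3 ± 1.4), Bmpr1a (12.9 ± 0.12), Neo1 (9.63 ± 0.58), Bmp6 (7.20 ± 1.05) and Bmpr2 (4.26 ± 0.48) followed, and from Tfr2 down no neighbours in the order overlapped. In KO FAC the order was the same, from Tmprss6 at 49.1 ± 6.1 FPKM to Bmpr2 at 3.13 ± 0.28. In WT FAC, Tfr2 (28.2 ± 1.6 FPKM) stood above Hfe (24.7 ± 1.5) and Tmprss6 (23.1 ± 2.3), of which the latter pair overlapped.

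**Figure D1:**
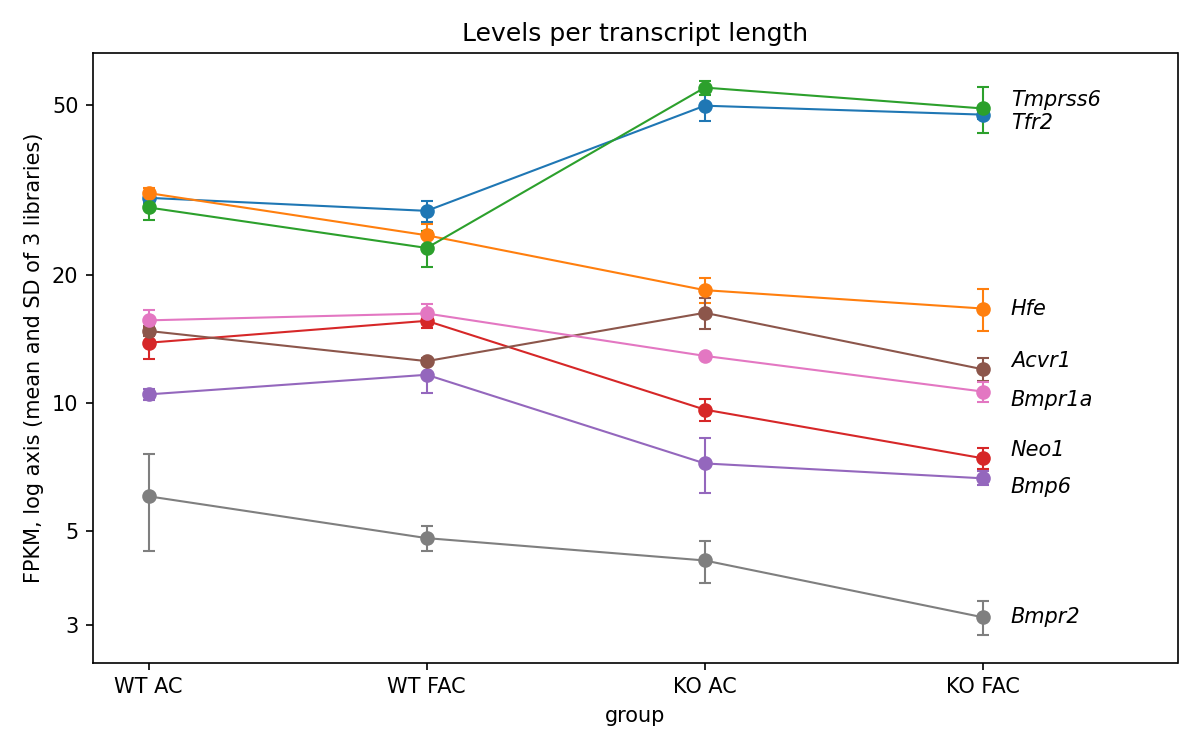
Mean level in FPKM (log axis) of each of the 8 genes in the 4 groups, with bars for the SD of 3 libraries; the lines only join the groups of a gene. Hfe, Tfr2 and Tmprss6 lie close together in WT AC (28.7 to 31.1 FPKM), and in KO AC Tmprss6 and Tfr2 lie at 55.0 and 49.8 against 18.4 for Hfe.

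The levels of the sensors relative to each other can be read within a library, where scaling between libraries plays no part. The ratio of Tfr2 to Hfe, both in FPKM, was 0.975 ± 0.0071 in WT AC and 1.14 ± 0.044 in WT FAC. It was 2.73 ± 0.35 in KO AC and 2.88 ± 0.28 in KO FAC, and the lowest KO library (2.333) stood above the highest WT library (1.193). The ratio of Tmprss6 to Hfe went from 0.924 ± 0.039 in WT AC to 2.996 ± 0.15 in KO AC. That of Tmprss6 to Tfr2 moved less, from 0.949 ± 0.046 to 1.11 ± 0.10.

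The first question was how these genes differ between KO and WT cells under AC. All 8 were called, 3 higher and 5 lower (edgeR quasi-likelihood test, Benjamini-Hochberg adjusted over 12275 genes, called at an adjusted p under 0.05). The genotypes differed widely: 42.9% of all tested genes were called in this comparison, 21.7% higher and 21.2% lower. The libraries did not overlap for 8 of 8 members, as for 53.0% of all genes. The median absolute log2 fold change was 0.44 over the members and 0.28 over all genes. Under FAC 7 of 8 were called, 2 higher and 5 lower, where 49.5% of all genes were called, 24.6% higher and 24.9% lower. The libraries of 7 members did not overlap, as for 59.1% of all genes. The median absolute change there was 0.58 over the members and 0.33 over all genes. The comparison under FAC uses other libraries than the comparison under AC, but the same model of all groups gave the spread for both. Of the 10 hepatocyte markers, 6 were higher and 2 lower in KO cells under AC, with a median log2 fold change of 1.09, and 6 were higher and 1 lower under FAC, with a median of 1.05. Ttr (1.62 ± 0.07 under AC) and Asgr1 (1.95 ± 0.15) were among the higher ones. The lower ones were Alb (−0.17 ± 0.04) and Apob (−0.99 ± 0.22) under AC, and Alb (−0.35 ± 0.04) under FAC. The summed hepatocyte level given above, mostly Alb, overlapped between the genotypes under AC and was lower in every KO library under FAC. The stellate sum given above was lower in every KO library than in every WT library. Of the 4 tested cholangiocyte markers Spp1 was lower in KO cells under both treatments (−2.79 ± 0.10 and −2.03 ± 0.09), and Krt19 (1.59 ± 0.22) and Sox9 (0.97 ± 0.20) were higher under FAC. The part of these markers in the genotype differences was not tested.

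**Figure D2:**
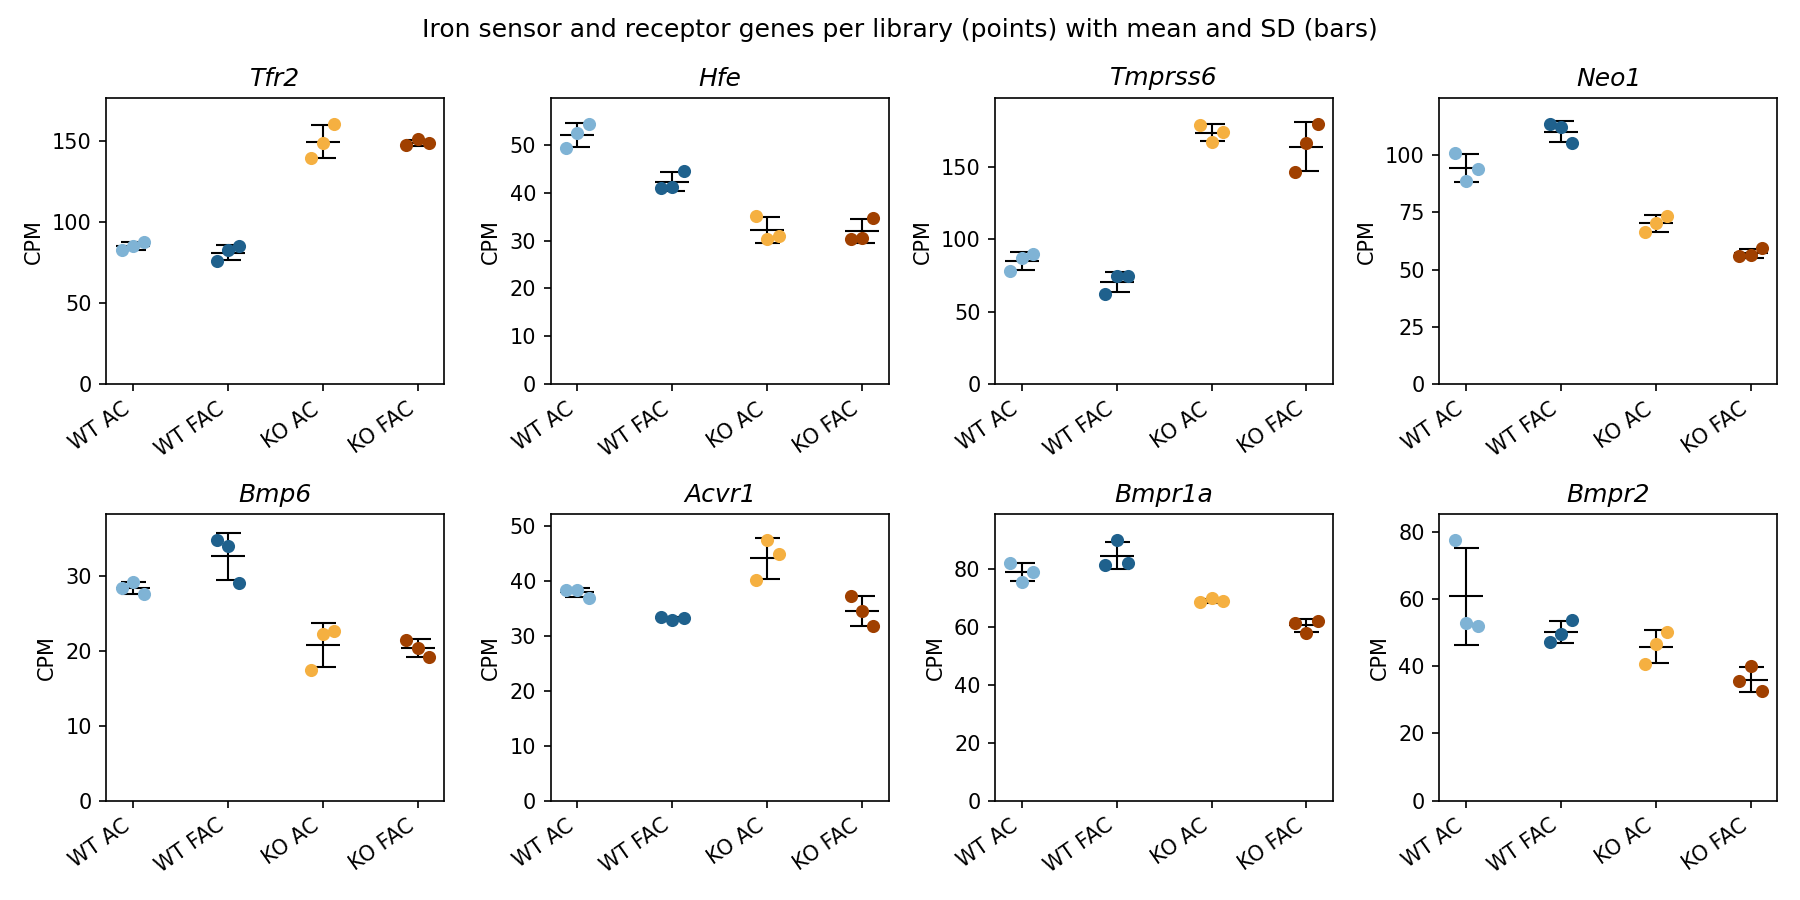
CPM of each gene in every library (points) with the mean and SD of 3 libraries (bars), by group, on axes that start at 0. All 6 KO libraries lie above all 6 WT libraries for Tfr2 and Tmprss6, and below them for Hfe, Bmp6, Bmpr1a and Neo1.

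Tmprss6 (chromosome 15, 78439667 to 78468648 in GRCm38.p6), which encodes the protease that cleaves hemojuvelin, had the largest difference between genotypes among the 8 genes. It was read at 77.81, 87.36 and 89.79 CPM in WT AC, 62.43, 75.02 and 74.5 in WT FAC, 178.8, 167.3 and 174.3 in KO AC and 146.3, 166.2 and 179.5 in KO FAC. Every KO library thus stood far above every WT library. The log2 fold change, KO against WT, was 1.03 ± 0.09 under AC (SE, taken from the test as the fold change over the root of its F statistic; edgeR adjusted p = 1.3e-06) and 1.22 ± 0.09 under FAC (edgeR adjusted p = 1.93e-07), or 2.04-fold and 2.32-fold. The size of the difference exceeded that of 89.4% of all tested genes under AC and 90.1% under FAC.

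Tfr2 (chromosome 5, 137569822 to 137588081), the transferrin receptor that acts as a sensor, was the other gene that was clearly higher. It was read at 82.39, 85.25 and 87.55 CPM in WT AC, 75.98, 82.41 and 84.94 in WT FAC, 139.5, 148.6 and 160.2 in KO AC and 147, 150.7 and 148.4 in KO FAC. The genotypes did not overlap and the treatments did. The KO to WT difference of Tfr2 on the log2 scale was 0.81 ± 0.07 under AC and 0.87 ± 0.07 under FAC (adjusted p of 5.9e-07 and 2.07e-07 by edgeR), or 1.76-fold and 1.83-fold.

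Hfe (chromosome 13, 23702034 to 23710854), a relative of MHC class I molecules that needs the partner chain encoded by B2m to reach the cell surface, went the other way. It was read at 49.3, 52.42 and 54.33 CPM in WT AC, 41.04, 41.23 and 44.62 in WT FAC, 35.22, 30.28 and 31.01 in KO AC and 30.43, 30.61 and 34.81 in KO FAC. All KO libraries were below all WT libraries. The log2 fold change was −0.69 ± 0.08 with AC and −0.40 ± 0.08 with FAC, for adjusted p of 2.7e-05 and 0.00149 by edgeR. Hfe was the only member with fractional estimated reads (in 10 of 12 libraries), as the estimating step gives where reads match more than one gene, so its level is less certain. Of the other genes whose products are known to bind HFE, Tfr2 was higher in KO cells, as given above, and B2m and Tfrc were lower. The log2 fold change was −0.75 ± 0.06 under AC and −1.003 ± 0.06 under FAC for B2m, and −0.47 ± 0.16 and −1.14 ± 0.17 for Tfrc.

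Neo1 (chromosome 9, 58874679 to 59036614), the receptor that binds hemojuvelin, was lower in KO cells, more so under FAC. It was read at 100.9, 88.87 and 93.68 CPM in WT AC, 113.5, 112 and 105.1 in WT FAC, 66.6, 70.18 and 73.59 in KO AC and 55.92, 56.18 and 59.49 in KO FAC. The 4 groups did not overlap at all. The log2 fold change was −0.43 ± 0.07 under AC and −0.95 ± 0.07 under FAC (adjusted p of 0.000235 and 1.22e-07 by edgeR). Hemojuvelin itself (Hfe2) had few reads, at 6.489, 10.44 and 7.879 CPM in WT AC and 18.13, 8.856 and 10.7 in KO AC, and did not pass (0.60 ± 0.43, edgeR adjusted p = 0.288 under AC, and 0.81 ± 0.45, 0.164 under FAC).

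Bmp6 (chromosome 13, 38345716 to 38500314), the main BMP ligand of iron control, was also lower in KO cells. It was read at 28.36, 29.16 and 27.52 CPM in WT AC, 34.72, 33.95 and 29.02 in WT FAC, 17.38, 22.25 and 22.57 in KO AC and 21.46, 20.4 and 19.15 in KO FAC. No KO library reached the WT range. The log2 fold change was −0.45 ± 0.11 under AC and −0.68 ± 0.11 under FAC (adjusted p of 0.00431 and 0.000171 by edgeR). In bulk RNA, fewer cells of a type and less RNA per cell cannot be told apart, and Bmp6 is known as a gene of sinusoidal endothelial cells. Among all tested genes, 21.2% were lower in KO cells and 21.7% higher under AC, and 24.9% and 24.6% under FAC. Of 11 tested sinusoidal endothelial markers, 6 were lower in KO cells and 3 higher under AC, and again 6 and 3 under FAC. Pecam1 (−1.52 ± 0.21 under AC), Cdh5 (−1.82 ± 0.20), Eng, Kdr, Tek and Fcgr2b were the lower ones, and Stab2 (1.34 ± 0.19), Flt4 and Oit3 the higher ones. The summed level of the 12 listed markers was 19.44 to 21.13 FPKM in WT AC, 21.46 to 22.9 in WT FAC, 21.34 to 24.6 in KO AC and 17.08 to 19.87 in KO FAC, and the defining marker Clec4g was at 0 in 11 of 12 libraries. In WT AC, Bmp6 at 10.5 FPKM stood above each of these markers, of which Flt4 (5.47) was the highest. This did not hold in KO cells. Flt4 (8.38 FPKM) stood above Bmp6 (7.20) in KO AC, and Oit3 (7.78) stood above Bmp6 (6.64) in KO FAC. The part of endothelial RNA in the Bmp6 difference was not tested.

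**Figure D3:**
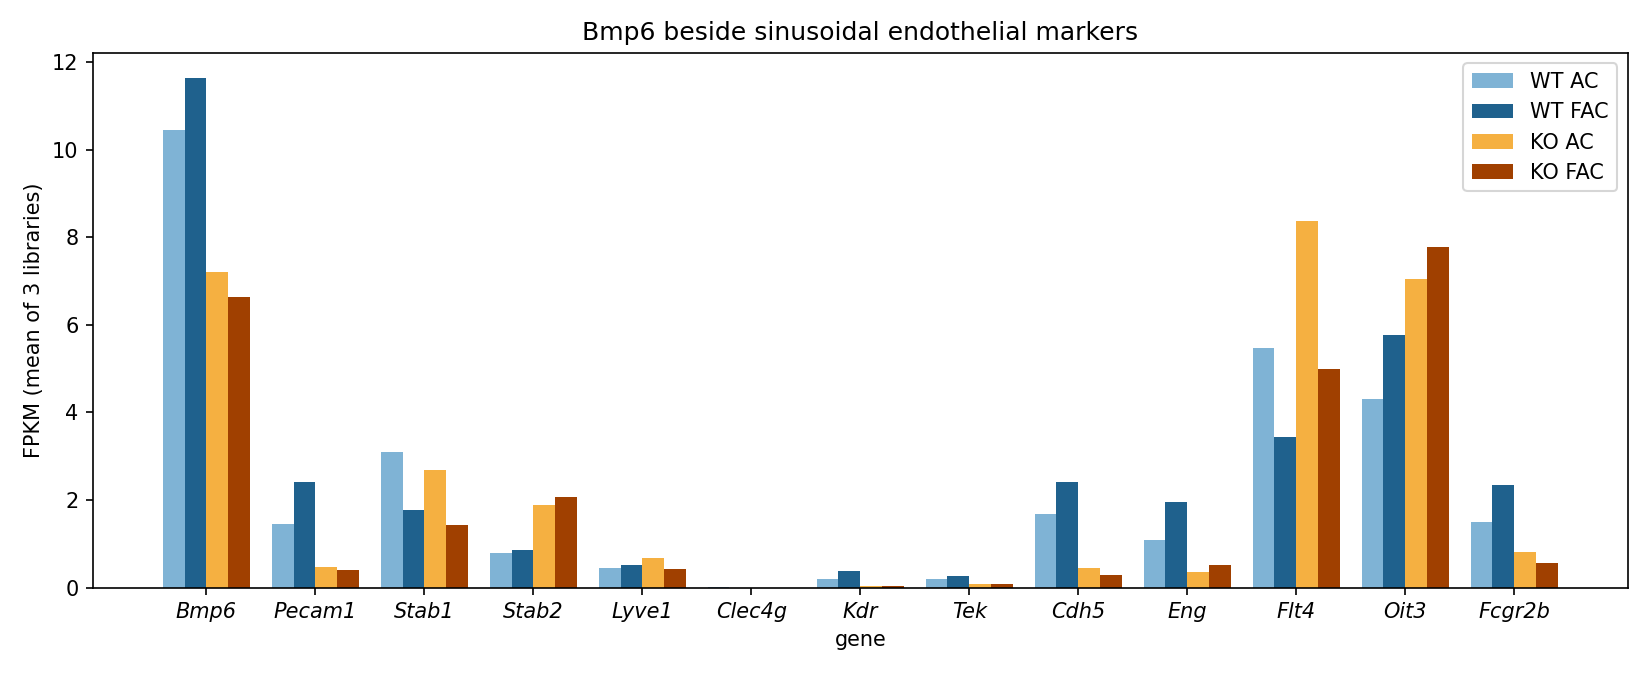
Mean FPKM of Bmp6 and of the 12 listed sinusoidal endothelial markers in the 4 groups (bars, mean of 3 libraries, axis from 0). Pecam1, Cdh5, Eng, Kdr, Tek and Fcgr2b are lower in both KO groups, as Bmp6 is, while Stab2, Flt4 and Oit3 are higher in KO than in WT cells of the same treatment.

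The receptors Bmpr1a, Acvr1 and Bmpr2 differed less between genotypes under AC than Tmprss6, Tfr2, Hfe, Neo1 and Bmp6. Bmpr2 (−0.41) was close to Neo1 (−0.43) there. This order did not hold under FAC, where Bmpr1a (−0.48) and Bmpr2 (−0.48) differed more than Hfe (−0.40). Several calls of these receptors were lost when a library was left out. Bmpr1a (chromosome 14, 34411061 to 34503336), a type I receptor, was read at 81.79, 75.51 and 78.96 CPM in WT AC, 81.4, 89.8 and 82.13 in WT FAC, 68.49, 69.79 and 68.7 in KO AC and 61.4, 57.68 and 62.11 in KO FAC. Every KO library was below every WT library, and the log2 fold change was −0.19 ± 0.06 under AC and −0.48 ± 0.06 under FAC (adjusted p of 0.0269 and 3.84e-05 by edgeR). Acvr1 (chromosome 2, 58446438 to 58566828), the other type I receptor, was read at 38.33, 38.35 and 36.82 CPM in WT AC, 33.42, 32.91 and 33.21 in WT FAC, 40.04, 47.32 and 44.74 in KO AC and 37.13, 34.4 and 31.78 in KO FAC. It was higher in KO cells under AC (0.22 ± 0.08, edgeR adjusted p = 0.0419), and the groups overlapped under FAC (0.05 ± 0.08, edgeR adjusted p = 0.608), where the sign turned with limma on log2(FPKM + 1) (−0.060). The ratio of Acvr1 to Bmpr1a in FPKM was 0.946 ± 0.045 in WT AC and 1.26 ± 0.10 in KO AC, with no overlap of libraries.

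Bmpr2 (chromosome 1, 59764279 to 59878081), the type II receptor, was read at 77.54, 52.9 and 51.93 CPM in WT AC, 47.14, 49.72 and 53.86 in WT FAC, 40.55, 46.71 and 50.26 in KO AC and 35.49, 39.96 and 32.72 in KO FAC. The first WT AC library stood apart from the other two. Bmpr2 was lower in KO cells, with a log2 fold change of −0.41 ± 0.14 under AC and −0.48 ± 0.14 under FAC (adjusted p of 0.0345 and 0.0144 by edgeR), and without WT AC 1 the difference under AC was −0.19 (edgeR adjusted p = 0.18). The type II receptor genes Acvr2a (0.00 ± 0.14 under AC) and Acvr2b (−0.205 ± 0.17) did not pass (edgeR adjusted p = 0.989 and 0.347).

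Under AC the calls of the 3 receptors were not stable, as leaving out any of several libraries ended each of them. Without WT AC 1 or without KO AC 2, 5 members were called in place of 8. Acvr1 missed the threshold without KO AC 2, KO AC 3, WT AC 1, WT AC 2 or WT AC 3 (edgeR adjusted p = 0.165, 0.0901, 0.0741, 0.0756 and 0.118, in a range from 0.0055 to 0.407 over its alternatives). So did Bmpr1a without KO AC 1, KO AC 2, KO AC 3, WT AC 1 or WT AC 3 (0.0531, 0.0567, 0.0579, 0.0928 and 0.0697, in a range from 0.00756), and Bmpr2 also without KO AC 1 or KO AC 2 (0.116 and 0.0717, in a range from 0.0194 to 0.18). Under FAC only the call of Bmpr2 was lost, without KO FAC 6 or WT FAC 6 (0.0528 and 0.0512, in a range from 0.00365).

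**Figure D4:**
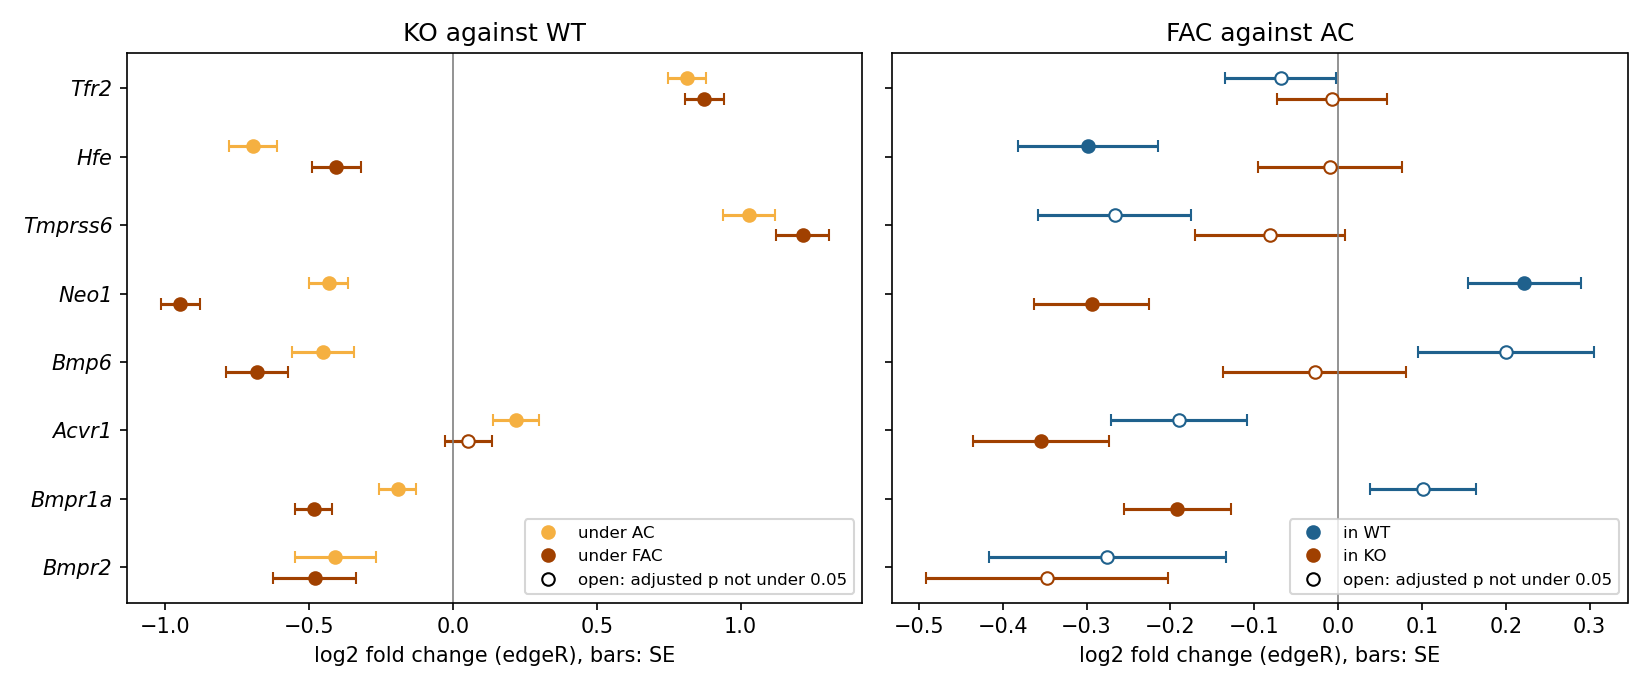
Log2 fold changes of the 8 genes with the SE (bars), on the left for KO against WT under AC and FAC, on the right for FAC against AC in WT and KO; filled points were called at an edgeR adjusted p under 0.05. On the left Tmprss6 (1.03 and 1.22) and Tfr2 (0.81 and 0.87) lie far to the right and Neo1 (−0.43 and −0.95) to the left, and on the right the point farthest from 0 is Acvr1 in KO (−0.35).

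The next question was how FAC acted on these genes. In WT cells 2 of 8 members were called, Neo1 higher and Hfe lower, where 17.2% of all genes were called, 8.70% higher and 8.55% lower. The libraries did not overlap for 4 members (Hfe, Tmprss6, Acvr1 and Neo1), against 43.2% of all genes. In KO cells 3 of 8 were called, all lower (Acvr1, Neo1 and Bmpr1a), where 29.6% of all genes were called and 14.6% were lower, and 4 did not overlap, against 38.8% of all genes. The median absolute change of the members was 0.21 in WT and 0.14 in KO cells, and that of all genes 0.18 and 0.23. The FAC comparisons share their AC libraries with the comparison of KO and WT under AC.

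In WT cells Hfe stood at 52.0 ± 2.5 CPM with AC and at 42.3 ± 2.0 with FAC (mean ± SD, n = 3), and the fall was called (log2 fold change −0.30 ± 0.08, edgeR adjusted p = 0.0252). In KO cells it was at 32.2 ± 2.7 and 32.0 ± 2.5 CPM, with a change of −0.01 and a 95% interval from −0.19 to 0.18. The difference of these effects was 0.29 ± 0.12 and did not pass (edgeR adjusted p = 0.204). Leaving out WT AC 2, WT AC 3, WT FAC 4 or WT FAC 5 ended the call in WT (edgeR adjusted p = 0.0661, 0.103, 0.0952 and 0.0941, in a range from 0.00574 over its alternatives).

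Tmprss6 was at 85.0 ± 6.3 CPM in WT AC and 70.7 ± 7.1 in WT FAC, with no overlap, but did not pass (−0.27 ± 0.09, edgeR adjusted p = 0.0603). It passed with a fit restricted to WT libraries (0.027), with limma on log2(FPKM + 1) (0.04) and with WT AC 1 left out (0.0484), and its alternatives ranged from 0.0126 to 0.234. In KO cells its change was −0.08, with a 95% interval from −0.27 to 0.11. Tfr2 was close to 0 in both genotypes: −0.07 with an interval from −0.21 to 0.07 in WT and −0.01 with an interval from −0.15 to 0.13 in KO. Bmp6 was at 0.20 ± 0.11 in WT (edgeR adjusted p = 0.212) and −0.03 ± 0.11 in KO (0.87).

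Of the receptors, Acvr1 fell from 44.0 ± 3.7 to 34.4 ± 2.7 CPM in KO cells (−0.35 ± 0.08, with an edgeR adjusted p of 0.00568), and this call held under each of its 17 alternatives. In WT cells it went from 37.8 ± 0.88 to 33.2 ± 0.26 CPM with no overlap, but missed the threshold (−0.19 ± 0.08, edgeR adjusted p = 0.127, in a range from 0.0243 to 0.26 over its alternatives). Bmpr1a fell from 69.0 ± 0.70 to 60.4 ± 2.4 CPM in KO cells (−0.19 ± 0.06, with an edgeR adjusted p of 0.0375). It missed the threshold without KO AC 2, KO AC 3, KO FAC 4, KO FAC 5 or KO FAC 6 (edgeR adjusted p = 0.0904, 0.0738, 0.064, 0.136 and 0.0506) and with a fit restricted to KO libraries (0.107), in a range from 0.00398. Bmpr2 did not pass in either genotype (−0.28 ± 0.14 in WT and −0.35 ± 0.14 in KO, edgeR adjusted p = 0.205 and 0.0875).

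Neo1 moved with FAC in opposite directions in the 2 genotypes. It rose from 94.5 ± 6.1 to 110.2 ± 4.5 CPM in WT cells (0.22 ± 0.07, edgeR adjusted p = 0.0359) and fell from 70.1 ± 3.5 to 57.2 ± 2.0 in KO cells (−0.29 ± 0.07, with an edgeR adjusted p of 0.00637). The difference of the effects, KO minus WT, was −0.52 ± 0.10 (edgeR adjusted p = 0.0151), and Neo1 was the only member called for the difference, where 3.15% of all genes were called. The fall in KO cells passed the threshold under each of its 17 alternatives. The rise in WT missed the threshold under 9 of its 15 alternatives, in a range from 0.017 to 0.526. Among these 9 were the fits without WT AC 2, WT AC 3, WT FAC 4 or WT FAC 5 (edgeR adjusted p = 0.14, 0.113, 0.129 and 0.114). Limma on log2(FPKM + 1) was another (0.169). The difference missed the threshold without WT AC 3 (edgeR adjusted p = 0.0531, in a range from 0.000274 to 0.0729). Bmpr1a had a difference in the same direction that did not pass (−0.29 ± 0.09, edgeR adjusted p = 0.0966). The other members did not pass for the difference: it was 0.06 ± 0.09 for Tfr2, 0.19 ± 0.13 for Tmprss6, −0.23 ± 0.15 for Bmp6, −0.17 ± 0.11 for Acvr1 and −0.07 ± 0.20 for Bmpr2 (edgeR adjusted p from 0.44 to 0.884). The summed hepatocyte markers, given above and mostly Alb, were higher under FAC in both genotypes. Of the 10 markers, 6 were called higher and 2 lower with FAC in WT cells, and 8 higher and none lower in KO cells. The lower ones in WT cells were Apob (−0.73 ± 0.22) and Cps1 (−0.51 ± 0.16). The part of these markers in the results for FAC was not tested.

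The other genes of the pathway were taken from lists of ligands, receptors, transducers, inhibitors, targets and the inflammatory arm, with 48 tested genes in all. With FAC, 2 of them rose and 13 fell in WT cells, where 17.2% of all genes were called, and 7 rose and 20 fell in KO cells, where 29.6% were. The median log2 fold change of these 48 was −0.19 and −0.17, where all genes were at 0.00 in both. The targets of BMP signalling had the median farthest from 0 among the lists: 5 of 6 tested targets fell in WT cells, with a median of −2.56, and 5 fell and 1 rose in KO cells, with a median of −1.29. Hamp itself fell by 4.36 ± 0.42 in WT cells on the log2 scale and by 1.22 ± 0.37 in KO cells, a difference of 3.14 ± 0.54 that was called (edgeR adjusted p = 0.0215). The KO libraries of Hamp overlapped, at 135.2, 275 and 253.3 CPM with AC and 141.5, 80.9 and 61.94 with FAC. Atoh8, a transcription factor gene induced by BMP signals, fell by 4.06 ± 0.35 in WT and 2.83 ± 0.35 in KO cells, and Id2, a relative of Id1, fell by 3.14 ± 0.32 and 1.55 ± 0.31. In WT cells Id1, a gene that BMP signals induce, fell from 42.7, 49.22 and 44.21 to 10.05, 11.01 and 13.59 CPM (−1.97 ± 0.16), and in KO cells its log2 fold change was −1.37 ± 0.18. Among the 8 sensor and receptor genes, the largest change with FAC was the −0.30 of Hfe in WT cells and the −0.35 of Acvr1 in KO cells.

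Among the receptors and coreceptors outside the members, 2 of 8 rose with FAC in WT cells (Eng, a coreceptor of endothelial cells, at 0.90 ± 0.22, and B2m at 0.21 ± 0.06) and Tfrc fell (−1.13 ± 0.16). In KO cells Tfrc was the one called, with a log2 fold change of −1.80 ± 0.17. Hfe2 did not pass (−0.47 ± 0.46 in WT and −0.27 ± 0.43 in KO). Of the 5 transducers, Smad9 fell in both genotypes (−2.21 ± 0.35 and −1.16 ± 0.37), with 78 and 16 reads summed over the WT groups and 46 and 19 over the KO groups, and Smad1 fell in KO cells (−0.31 ± 0.11). Among the 17 inhibitors and proteases, Smad6, which blocks BMP signals and is induced by them, fell in both genotypes (−1.25 ± 0.26 and −1.37 ± 0.28). Smad7, a related inhibitor, did not pass in either (−0.48 ± 0.17 and 0.11 ± 0.17). Bmper, a BMP-binding protein gene, fell in both (−1.76 ± 0.56 and −1.59 ± 0.48), with 29 and 8 reads summed over the WT groups and 43 and 13 over the KO groups. St14, described below with the genotypes, fell in KO cells (−1.61 ± 0.28). The antagonist gene Grem1 was called higher with FAC in KO cells (3.44 ± 0.59), with 6 reads summed over KO AC and 64 over KO FAC. Hamp2, the close copy of Hamp, rose in KO cells (1.75 ± 0.14), and the estimated reads of both genes summed to whole numbers in every group (843 for Hamp and 23 for Hamp2 in WT FAC). Trf, the gene of transferrin, did not pass in WT cells (−0.11 ± 0.06) and rose in KO cells (0.20 ± 0.06). For the difference of the FAC effects, KO minus WT, Id1 (0.61 ± 0.24), Smad7 (0.58 ± 0.24), Hfe2 (0.20 ± 0.62), Tfrc (−0.67 ± 0.23), Trf (0.31 ± 0.09) and B2m (−0.25 ± 0.09) did not pass (edgeR adjusted p from 0.071 for Trf to 0.897 for Hfe2).

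Between genotypes, 6 of the 48 genes were higher and 9 lower in KO cells under AC, and 14 higher and 8 lower under FAC, where 42.9% and 49.5% of all genes were called. St14, which encodes matriptase, a membrane serine protease related to matriptase-2, was higher in KO cells along with Tmprss6. It was read at 2.999, 4.76 and 3.775 CPM in WT AC and 10.27, 19.81 and 22.86 in KO AC (2.20 ± 0.28, edgeR adjusted p = 6.78e-05), and the log2 fold change under FAC was 1.59 ± 0.33 (0.0017). Under FAC, 24.6% of all genes were called higher in KO cells and 24.9% lower. Of the 6 tested ligand genes outside the members, 4 were higher and none lower there. These were Bmp2 (0.96 ± 0.31), Gdf15 (0.95 ± 0.28), Inhba (1.16 ± 0.33) and Inhbb (0.47 ± 0.18). Of the 17 inhibitors and proteases, 7 were higher and none lower in KO cells under FAC. Among them were the BMP antagonist gene Chrd (1.44 ± 0.33, and 1.37 ± 0.32 under AC) and Grem1 (3.25 ± 0.57, with 7 reads summed over WT FAC). Smad7 (0.55 ± 0.17, and −0.03 ± 0.16, not called, under AC) and Bambi, a decoy receptor (1.42 ± 0.22), were others. Bambi was at 1.129, 1.04 and 0.8603 CPM in WT FAC and 2.561, 2.485 and 3.085 in KO FAC, and was called for the difference of the FAC effects (1.72 ± 0.32, edgeR adjusted p = 0.0153). Of the targets, Id1 was lower in KO cells under both treatments (−1.44 ± 0.16 and −0.83 ± 0.18), while Hamp did not pass under AC (−0.54 ± 0.36, edgeR adjusted p = 0.25) and was higher under FAC (2.59 ± 0.40). Id2 was lower under AC (−1.14 ± 0.28), and Hamp2 was higher under both (6.31 ± 0.27 and 6.54 ± 0.21), with 8 and 23 reads summed over the WT groups and 637 and 1993 over the KO groups. Eng was lower under both (−1.48 ± 0.26 and −1.79 ± 0.24). Trf was lower in KO cells under AC, with a log2 fold change of −0.16 ± 0.06 (edgeR adjusted p = 0.0455), and was at 0.15 ± 0.06 under FAC (0.0614).

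The genes whose log2 CPM followed the members most closely over the 12 libraries were found for each by Pearson's r, as a description. The libraries differ by genotype and share depth and scaling, so r within the 6 WT and within the 6 KO libraries is given after it. Lrg1, a secreted glycoprotein gene of the acute phase, was nearest to Tmprss6 (r = 0.992 over 12 libraries, 0.879 in WT and 0.895 in KO). Galns, a lysosomal sulfatase gene, was nearest to Tfr2 (0.991, 0.75 and 0.625). Many genes were nearly as close: r over the 12 libraries passed 0.95 for 225 genes with Tfr2, 192 with Tmprss6 and 66 with Neo1. Pxdn, which encodes the matrix peroxidase peroxidasin, was nearest to Bmp6 (0.988, 0.909 and 0.963), and Phactr2 to Neo1 (0.987, 0.978 and 0.857). Ankrd1 was nearest to Acvr1 (0.974, 0.981 and 0.975). Clasp2 was nearest to Bmpr1a (0.979, 0.869 and 0.97) and Apc to Bmpr2 (0.969, 0.977 and 0.914). The second in rank were Apoa4 for Tfr2 (0.991, but 0.303 in WT and 0.457 in KO) and Etnk2 for Tmprss6 (0.989, 0.86 and 0.502). These likenesses, as that of Galns to Tfr2, were weaker within a genotype. Farsb was second for Bmp6 (0.986, 0.868 and 0.977), Ergic1 for Hfe (0.971, 0.99 and 0.778) and Parp4 for Acvr1 (0.964, 0.909 and 0.989). Mkln1 was second for Bmpr1a (0.975, 0.918 and 0.982), Nipbl for Bmpr2 (0.966, 0.934 and 0.968) and Noc3l for Neo1 (0.983, 0.945 and 0.855).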

How the data were processed

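RNA-seq of 12 libraries was analysed, 3 per group, with groups taken from the labels. The authors deposited, per library, estimated counts per gene from RSEM (per the submitters' processing notes, which also name mm10 and GRCm38.p6), an FPKM value and a TPM value. The aligner, annotation release and strand setting are not given in the sources used here. A further 8 numeric columns, which name no single library, were not used.

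The estimated counts were rounded to whole numbers. Genes were filtered with filterByExpr (minimum count 10), leaving 12275 of 16728 and removing 4453. Counts were scaled by TMM and fitted in one model of the 4 groups with edgeR 4.0.16 in R 4.3.3 (glmQLFit with trend and robust, glmQLFTest), with p-values adjusted by Benjamini-Hochberg over all tested genes. CPM uses the scaled library size. The SE is the log2 fold change over the root of the F statistic, and intervals are at 95%. Library totals were 16464494 to 18335700 reads. The spread between libraries of a group, beyond that of read sampling, was estimated by edgeR at 10.8% in common for all tested genes. The test was tested on simulated data in which few genes were changed. For FAC against AC in WT, over 12108 genes, it recovered 58.6% of 70 genes changed 1.5-fold. It recovered 80.3% of 66 genes changed 2-fold there, with 6.59% false calls. At 1.5-fold it recovered 42.4% of 66 genes for KO against WT under FAC (over 12115 genes). For the difference of the FAC effects it recovered 22.1% of 68 genes (over 12106 genes). In the data far larger shares were called for FAC in WT (17.2%) and for KO against WT under FAC (49.5%). The adjusted p depends on the share of changed genes, so these rates may not hold for the data. Deposited FPKM was used for levels between genes, and FPKM and TPM for alternatives with limma 3.58.1; DESeq2 1.42.0, other filters and scalings, and each library left out were further alternatives. Promoter windows and gene positions come from RefSeq (GRCm38.p6).

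All 8 genes are named in every comparison. Other pathway genes are named where called and among the 6 largest changes of a comparison, with Hamp, Id1, Smad7, Hfe2, Tfrc, Trf and B2m named whatever their change, as are the 2 genes most alike to each member by Pearson's r, except the nearest to Hfe, which is not reported here. All 6 genes of the inflammatory arm are named in the last section whatever their change. A few others (Bmp2, Gdf15, Inhba, Inhbb, Acvr2a, Acvr2b, Smad6, Smad1 and Bambi) were named after their values were seen. Members and lists were chosen with earlier results of these data known. Marker lists are those of hepatocytes, sinusoidal endothelial cells, macrophages, stellate cells and fibroblasts, and cholangiocytes. Leaving out KO AC 1 with KO FAC 4 or KO FAC 6 was added after seeing the data.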

Additional observations from a re-analysis of the deposited data

Results flagged for a closer look

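Neo1 differed between genotypes in its response to FAC, by a test of the difference itself: the FAC effect in KO cells minus that in WT cells was −0.516 on the log2 scale (95% interval −0.72 to −0.31, edgeR adjusted p = 0.0151). Without WT AC 3 it missed the threshold (edgeR adjusted p = 0.0531, in a range from 0.000274 to 0.0729 over all alternatives). All 3 WT FAC libraries stood above all WT AC libraries, and all 3 KO FAC libraries stood below all KO AC libraries. The part of cell composition or depth in this difference was not tested.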

How the results depend on the processing

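Over the alternatives, 645 of 728 values of the 8 genes kept their direction and side of the threshold, 51 lost and 11 gained the call, and 21 turned in sign. The genotype calls of Tfr2, Hfe, Tmprss6, Bmp6 and Neo1 held in 180 of 180 fits. The number of members called for FAC in WT was 1 with no filter, 1 with no trend, 4 with the compared groups alone, and 0 to 3 when each library was left out. For FAC in KO it was 6 with limma on log2(TPM + 1) and 2 to 3 with libraries left out. For KO against WT it was 5 to 7 under AC and 6 to 7 under FAC with libraries left out. For the difference it was 2 without KO AC 1 and KO FAC 4, where Hfe passed too (0.40, edgeR adjusted p = 0.0371), and 0 to 1 with libraries left out.

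The values that turned in sign had not been called. Acvr1 in KO against WT under FAC was −0.064 with log2(FPKM + 0.1), −0.060 with log2(FPKM + 1) and −0.127 with log2(TPM + 1), and Bmpr1a with FAC in WT was −0.025 with log2(TPM + 1). With FAC in KO, Tfr2 was 6.69e-05 with DESeq2, 0.0035 with the FPKM filter, 7.56e-05 with median-of-ratios scaling, and from −0.055 (KO AC 1) to 0.043 (KO AC 3) with each library left out, with 0.012 for KO FAC 4. In the same comparison Hfe was 0.0015 with the FPKM filter, 0.060, 0.036 and 0.020 with KO AC 1, KO FAC 4 and KO FAC 5 left out in turn, and 0.11 with KO AC 1 and KO FAC 4 both left out, against −0.076 without KO FAC 6. Tmprss6 there was 0.0064 without KO FAC 4 and 0.028 with that pair left out, and Bmp6 was 0.023 without KO AC 2, 0.034 without KO AC 3 and 0.014 without KO FAC 6. Bmpr2 for the difference was 0.018 without WT AC 2 and 0.029 without WT AC 3, against −0.29 without WT AC 1. The cause of these changes was not tested.

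Of all genes, 2117 were called for FAC in WT, against 3345 with those groups alone and 1250 to 1656 with a library left out, and 3633 for FAC in KO, against 2199 alone, 2371 to 4095 with a library left out (KO AC 3 and KO AC 1) and 4783 without KO AC 1 and KO FAC 4. For the difference 387 were called, against 678 with DESeq2, 1918 without KO AC 1 and KO FAC 4, and 95 to 643 with a library left out. With log2(TPM + 1) the median of all genes shifted to −0.101 and −0.151 for FAC in WT and KO, and to −0.109 and −0.17 for KO against WT under AC and FAC. The share of called genes that were higher went there from 50.4% to 22.9%, 50.6% to 18.5%, 50.7% to 32.2% and 49.7% to 28.2%. With log2(FPKM + 1) it was 41.3%, 33.9%, 37.9% and 34.9%.

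KO and WT libraries share sample numbers, but same-numbered libraries deviated together little (r from −0.142 to 0.208), so the numbers were not taken as pairs. With the number as a replicate block, 5 members were called under AC in place of 8 and 0 in place of 1 for the difference (Neo1 at an edgeR adjusted p of 0.0729), where 84 genes were called in all. FAC and AC libraries share no number.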

Other observations

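The inflammatory route to hepcidin runs from the IL-6 receptor (Il6ra and its partner Il6st) through the kinases Jak1 and Jak2 to the transcription factor Stat3, with Socs3 as a feedback inhibitor. With FAC in KO cells, 4 of these 6 genes fell and 1 rose, where 29.6% of all genes were called and 14.6% fell: Il6ra (−0.83 ± 0.18), Il6st (−0.67 ± 0.13), Jak2 (−0.46 ± 0.08) and Stat3 (−0.23 ± 0.07) fell, and Socs3 rose (0.57 ± 0.16, SE, edgeR). In WT cells Jak2 was the one called (−0.29 ± 0.08), and none of the 6 was called for the difference of the FAC effects (edgeR adjusted p from 0.19 for Socs3). Jak2 was lower in KO cells under both treatments (−0.48 ± 0.08 and −0.65 ± 0.08), as was Jak1 (−0.31 ± 0.06 and −0.23 ± 0.06). Il6st was lower under FAC (−0.55 ± 0.13), and Il6ra was higher in KO cells under AC (0.48 ± 0.18, edgeR adjusted p = 0.0398).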
